A study of Homo sapiens with 20 samples.

Results

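The genes of the integrin subunits, the laminin chains and the collagen chains were followed through treatment of the human breast cancer cell line MDA-MB-231 with cisplatin (Cis), with ammonium tetrathiomolybdate (TM), or with both drugs (Cis/TM). Members were taken by gene symbol from the annotation of the array, as integrin alpha and beta subunits, laminin alpha, beta and gamma chains, and collagen alpha chains, and genes with the same prefix that code for no subunit or chain were set aside. Of 18417 genes tested, 77 were members, made up of 24 integrin, 10 laminin and 43 collagen genes. MDA-MB-231 is an established triple-negative line. The platinum compound cisplatin forms crosslinks in DNA, whereas TM binds and removes copper. Affymetrix Human Gene 1.0 ST arrays measured the RNA after 12 h or 24 h with 36 µM cisplatin, 10 µM TM or both. The 20 arrays fell into 7 groups, namely Control and each of the 3 treatments at each of the 2 times, with 2 arrays for TM at 12 h and 3 for every other group. No time is given in the labels of the 3 Control arrays, and the study's methods describe a vehicle control, so the same 3 arrays were set against both times and every comparison with Control shares them. All groups came from 1 cell line. The methods describe triplicate wells of 6-well plates for each treatment and do not say whether the wells were from separate experiments, so p-values measure the spread between wells treated alike.

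Integrins are receptors of the cell surface made of an alpha and a beta subunit, and the pair that forms decides which matrix protein the cell can bind. Laminins are trimers of an alpha, a beta and a gamma chain that build the basement membrane together with the type IV collagen network, whereas fibrillar collagens give connective tissue its strength. In carcinoma cells these receptors and ligands are known for their part in attachment, spreading and invasion.

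The arrays gave log2 expression values, and a gene was called higher or lower when its limma p-value, adjusted over all genes, was under 0.05 and its fold change was over 1.5. Genes that mark the line as mesenchymal were high and hormone receptor genes low: VIM, CD44, ANXA1, CAV1 and SPARC lay between the percentiles 90.3 and 99.5 of gene means, and ESR1, PGR and the epithelial cadherin CDH1 between 9.4 and 16.6. Other epithelial or receptor genes that had been listed as low or moderate in this line were higher, with ERBB2 at 53.5, CLDN3 at 54.9, KRT8 at 79.1, EPCAM at 81.2 and KRT18 at 82.1. The markers of leukocytes, fibroblasts and endothelium lay between 2 and 32.2. Array medians ran from 5.712 to 5.942. The standard deviation over genes was 2.011, 2.01 and 2.034 in Control A, B and C. It was 2.028 in Cis 12 h A and 2.044 in TM 24 h A, and between 2.099 and 2.181 in the other treated arrays. Every comparison with Control thus sets arrays of narrower spread against mostly wider ones, and the part of this in the changes was not tested. Among treated arrays, Cis 12 h A and TM 24 h A were the farthest from the rest of their own groups over all genes (root mean square distance 0.324 and 0.309, against 0.14 to 0.244 for the other treated arrays), and each of the 3 Control arrays lay as far from the rest of its group, at 0.302 to 0.316. Some results for members that rest on these arrays are therefore also given without them. The list genes and the span correlations are given with all arrays only. Expression in these bulk samples cannot tell fewer cells from less RNA per cell. The members were mostly genes of low signal: 25 had a mean below the lower quartile of all genes, 31 between it and the median, 16 between the median and the upper quartile, and 5 above.

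Few of these genes moved far. Against Control, 9 of 77 members were called in at least 1 of the 6 comparisons and 68 in none, with 6 of the 9 lower, 3 higher and 0 in opposite directions. No share of all genes over the 6 comparisons together is given beside these counts, so they cannot be called few or many against it. Shares of all genes for each comparison follow. At 12 h of cisplatin, 2 members were higher and 5 lower, where 14.8% of all genes tested were called higher and 10.8% lower. At 24 h of cisplatin, 2 were higher and 2 lower, against 11.5% and 4.9% of all genes. With TM, 2 were higher and 2 lower at 12 h (8.99% and 3.11% of all genes), and 1 was higher and 2 lower at 24 h (5.16% and 2.55%). With both drugs, 2 were higher and 4 lower at 12 h (15.2% and 8.55%), and 0 were higher and 3 lower at 24 h (4.54% and 2.48%). As shares of the 77 members, the counts ran from 0 to 2.6% for higher and from 2.6% to 6.49% for lower. The share of members called higher was thus below that of all genes in each of the 6 comparisons, and the share called lower was above it only with TM at 24 h and with Cis/TM at 24 h, by small counts. Of the members with an adjusted p under 0.05, between 5 and 14 per comparison had a fold change under 1.5 and were not called.

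**Figure D1:**
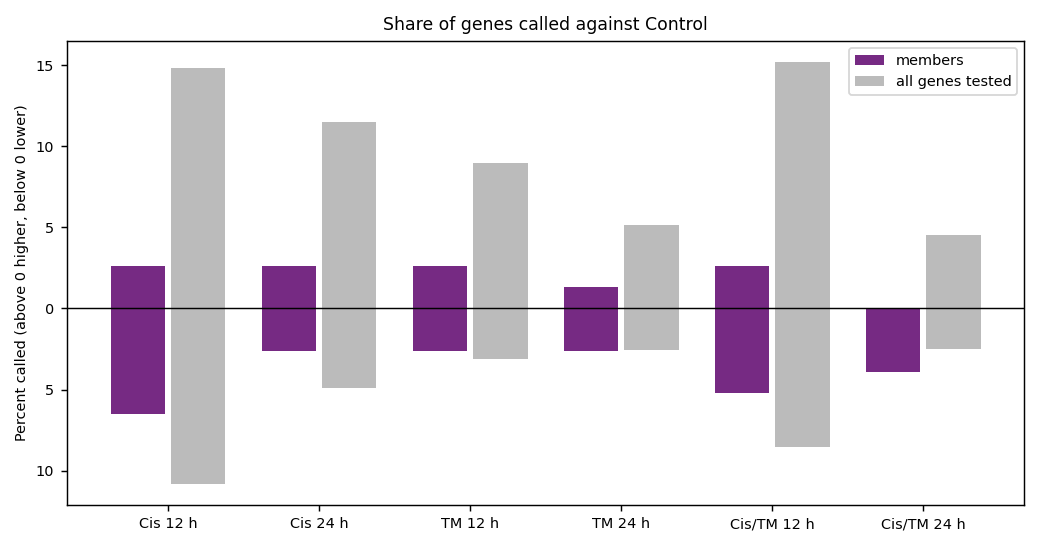
Percent of the 77 members (purple) and of all 18417 genes tested (grey) called higher (above 0) or lower (below 0) than Control at each treatment and time. The purple bars above 0 are shorter than the grey bars in all 6 comparisons.

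The split of calls depended on how the arrays were scaled. The medians of 16 of the 17 treated arrays were above that of every Control array. The exception was Cis/TM 24 h C (5.748, below Control A and B). Centring each array on its median moved the median log2 fold change of all genes from -0.01 to -0.16 at Cis 12 h. At Cis/TM 12 h it moved from -0.05 to -0.16. With quantile normalization these medians were 0.001 and -0.018, so a shift of that size appeared with median centring and not in the values as deposited. With that centring, 2027 genes were called higher and 3075 lower at Cis 12 h, against 2718 and 1983 as deposited. The split moved from 2115 and 903 to 1607 and 1359 at Cis 24 h, from 1656 and 573 to 1369 and 866 at TM 12 h, from 951 and 470 to 659 and 708 at TM 24 h, and from 2800 and 1575 to 2272 and 2363 at Cis/TM 12 h. At Cis 24 h the split was 1306 and 1025 with quantile normalization, and 1195 and 1003 with the trend over level removed. Among members, median centring left 0 higher and 6 lower at Cis 12 h, 0 and 4 at Cis 24 h, and 1 and 6 at Cis/TM 12 h. Quantile normalization and removal of the trend each also left 0 and 6 at Cis 12 h and 0 and 4 at Cis 24 h. Each left 1 and 5 at Cis/TM 12 h. At TM 12 h and TM 24 h, the number of higher members did not fall under any of these scalings. Every call of a member against Control that was lost under median centring, quantile normalization or removal of the trend over level was a call of a higher gene (ITGA5, LAMB3 or LAMB2). Other calls were gained. At TM 24 h, 2 members were higher in place of 1 with quantile normalization and with the trend removed. At Cis/TM 12 h, 6 were lower in place of 4 with median centring.

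**Figure D2:**
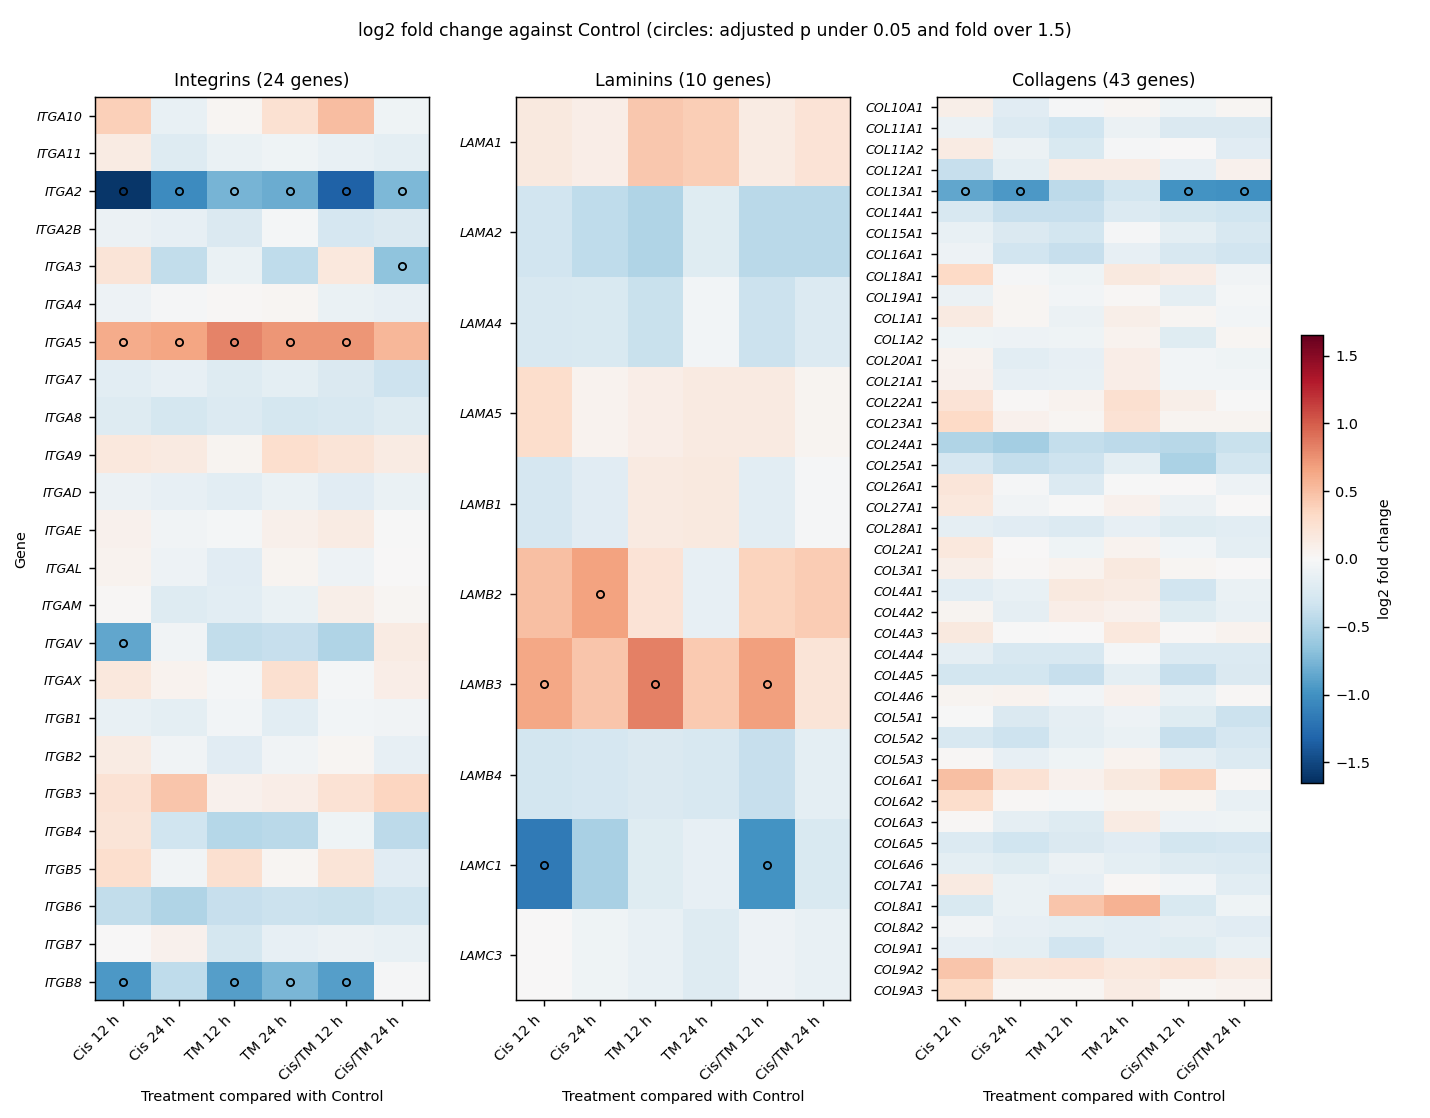
log2 fold change against Control (colour scale) of each of the 77 members (rows) in the 6 treatment groups (columns), for integrins, laminins and collagens. Circles mark the calls, which fall on 9 rows, and only the ITGA2 row carries a circle in all 6 columns.

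Promoter sequences were set out for 5 of the called members. These were the 3 lowered genes (ITGA2, LAMC1 and COL13A1) and the 2 raised genes (ITGA5 and LAMB3) with the largest changes against Control. RefSeq promoter sequences (GRCh38.p14) matched 54 of the 77 members. Each line holds the 250 bases before the annotated start of the gene, 5′ to 3′ on the strand of the gene, with capitals for matches on either strand to any of 3 motifs. The GC box was searched as GGGCGG. The TATA box was searched as TATAAA. The AP-1 site was searched as TGANTCA, and matches to different motifs were allowed to overlap. The windows are ITGA2 at chr5:52989102-52989351, plus strand, LAMC1 at chr1:183023170-183023419, plus strand, COL13A1 at chr10:69801656-69801905, plus strand, ITGA5 at chr12:54419267-54419516, minus strand, and LAMB3 at chr1:209652426-209652675, minus strand.
ITGA2: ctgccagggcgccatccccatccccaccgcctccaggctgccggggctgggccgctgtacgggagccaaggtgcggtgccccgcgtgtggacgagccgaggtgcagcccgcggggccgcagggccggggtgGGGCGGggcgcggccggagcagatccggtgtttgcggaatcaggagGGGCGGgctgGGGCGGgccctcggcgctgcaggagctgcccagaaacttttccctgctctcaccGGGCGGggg
LAMC1: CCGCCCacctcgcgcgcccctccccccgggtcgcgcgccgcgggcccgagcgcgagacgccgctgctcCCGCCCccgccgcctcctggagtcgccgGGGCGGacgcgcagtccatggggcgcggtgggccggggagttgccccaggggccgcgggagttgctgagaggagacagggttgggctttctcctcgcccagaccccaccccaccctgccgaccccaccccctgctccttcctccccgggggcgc
COL13A1: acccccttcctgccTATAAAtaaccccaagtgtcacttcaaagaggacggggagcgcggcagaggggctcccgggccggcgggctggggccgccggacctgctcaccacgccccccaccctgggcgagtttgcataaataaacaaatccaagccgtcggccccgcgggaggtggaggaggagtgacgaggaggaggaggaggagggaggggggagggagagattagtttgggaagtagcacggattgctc
ITGA5: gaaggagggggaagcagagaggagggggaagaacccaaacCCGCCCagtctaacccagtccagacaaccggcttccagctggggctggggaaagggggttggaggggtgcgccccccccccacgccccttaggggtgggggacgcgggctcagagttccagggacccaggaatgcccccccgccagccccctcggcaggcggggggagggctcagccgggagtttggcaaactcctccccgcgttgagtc
LAMB3: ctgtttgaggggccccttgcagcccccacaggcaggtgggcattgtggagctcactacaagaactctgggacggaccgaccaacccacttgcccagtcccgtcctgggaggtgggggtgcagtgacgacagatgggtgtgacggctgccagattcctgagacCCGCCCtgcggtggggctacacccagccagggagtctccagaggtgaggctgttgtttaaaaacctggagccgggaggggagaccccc
The window of ITGA2 held 4 GC boxes, that of LAMC1 3, and those of ITGA5 and LAMB3 1 each, while the window of COL13A1 held 1 TATA box and 0 GC boxes. Of the 54 member windows, 30 (55.6%) held a GC box, against 42.3% of the 27305 windows of all genes. A TATA box stood in 4 member windows (7.4%, against 11.1% of all), and an AP-1 site in 0 (against 6.6% of all). The median content of G and C was 65.2% over members and 58.0% over all windows. Among called members whose windows are not printed, ITGB8 (lower) held 2 GC boxes, LAMB2 (higher) 1 and ITGAV (lower) 0. GC boxes thus stood in windows of both lowered and raised genes, and a difference between these was not tested. A match describes the letters of the window only.

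Among the 16 integrin alpha subunits, ITGA2, ITGAV and ITGA3 were lower than Control in 1 or more groups and ITGA5 was higher, and the other 12 were called in none. ITGA2 codes for the alpha 2 subunit, which pairs with beta 1 as a receptor for collagen, and it was lower in all 6 comparisons. In Control it stood at 9.21, 9.25 and 9.25 (log2 expression). With Cis it was 7.16, 7.91 and 7.81 at 12 h and 8.24, 8.22 and 8.13 at 24 h, and with TM it was 8.51 and 8.42 at 12 h and 8.16, 8.47 and 8.62 at 24 h. With both drugs it was 7.94, 7.95 and 7.83 at 12 h and 8.63, 8.30 and 8.56 at 24 h. No treated array reached the lowest Control array, and Cis 12 h A was the lowest of the 20. The log2 fold change against Control was -1.61 (SE 0.15, adjusted p = 5.09e-08) at Cis 12 h, a level 3.05-fold lower. At Cis 24 h it was -1.04 (SE 0.15, adjusted p = 3.07e-05), or 2.05-fold lower. TM alone gave -0.77 (SE 0.17, adjusted p = 0.00259) at 12 h and -0.82 (SE 0.15, adjusted p = 0.000858) at 24 h. Cis/TM gave -1.33 (SE 0.15, adjusted p = 7.16e-07) at 12 h and -0.74 (SE 0.15, adjusted p = 0.00223) at 24 h. Without Cis 12 h A, the change at Cis 12 h was -1.38, and the gene was called in all 6 comparisons under every alternative run and with each array left out in turn.

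ITGA5, the alpha 5 subunit of the receptor for fibronectin, moved the other way. Its Control arrays were close together at 5.81, 5.78 and 5.74. Values with Cis were 6.17, 6.57 and 6.41 at 12 h and 6.62, 6.51 and 6.16 at 24 h, and with TM 6.65 and 6.55 at 12 h and 6.47, 6.47 and 6.59 at 24 h. With both drugs they were 6.70, 6.30 and 6.51 at 12 h and 6.41, 6.21 and 6.35 at 24 h. Every treated array lay above every Control array. ITGA5 was higher with TM by 0.82 (SE 0.14, adjusted p = 0.00035) at 12 h and 0.73 (SE 0.13, adjusted p = 0.000491) at 24 h, which are 1.77-fold and 1.66-fold levels. It was also called with Cis at 12 h, at 0.61 (SE 0.13, adjusted p = 0.000577), with Cis at 24 h, at 0.65 (SE 0.13, adjusted p = 0.000539), and with Cis/TM at 12 h, at 0.73 (SE 0.13, adjusted p = 0.000103). At Cis/TM 24 h the change of 0.55 (SE 0.13, adjusted p = 0.00546) passed the p threshold and not the fold, and it was 0.60 and called without Cis/TM 24 h B. The calls with cisplatin lay close to the fold threshold. At Cis 12 h the change was 0.46 with median centring, 0.45 with quantile normalization, 0.35 with the trend over expression level removed and 0.51 without Cis 12 h B, and at Cis 24 h it was 0.56 with median centring, 0.50 with quantile normalization, 0.45 with the trend removed and 0.56 without Cis 24 h A, all uncalled. At Cis/TM 12 h it was 0.57 with quantile normalization and 0.51 with the trend removed, also uncalled. The calls with TM were kept under all of these settings.

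ITGAV, the alpha V subunit, which pairs with several beta subunits to bind vitronectin, fibronectin and latent TGF-beta, had high signal throughout. Control stood at 9.55, 9.69 and 9.65 and Cis 12 h at 8.34, 9.05 and 8.92. Cis 24 h was close to Control, at 9.67, 9.53 and 9.53. TM gave 9.33 and 9.12 at 12 h and 9.27, 9.24 and 9.23 at 24 h, and Cis/TM gave 9.18, 9.11 and 9.10 at 12 h and 9.81, 9.82 and 9.67 at 24 h. The 12 h arrays with cisplatin all lay below Control, and Cis 12 h A was again the lowest. The log2 fold change at Cis 12 h was -0.86 (SE 0.13, adjusted p = 2.09e-05), or 1.81-fold lower, and -0.64 and still called without Cis 12 h A. The changes of -0.50 (SE 0.13, adjusted p = 0.00419) at Cis/TM 12 h, -0.40 (SE 0.15, adjusted p = 0.0513) at TM 12 h and -0.38 (SE 0.13, adjusted p = 0.0448) at TM 24 h were smaller than 1.5-fold. At Cis 24 h the change was -0.05 (SE 0.13, adjusted p = 0.776).

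ITGA3, the alpha 3 subunit, a receptor for laminin with beta 1, was called lower at Cis/TM 24 h alone. Its Control arrays were spread, at 7.78, 8.41 and 7.95. At 12 h the values were 8.22, 8.30 and 8.27 for Cis, 7.97 and 7.90 for TM and 8.49, 8.02 and 8.16 for Cis/TM. At 24 h they were 7.80, 7.63 and 7.49 for Cis, 7.53, 7.53 and 7.81 for TM and 7.47, 7.36 and 7.31 for Cis/TM. Of the treated groups, Cis/TM 24 h was the one with all arrays below Control. The log2 fold change at Cis/TM 24 h was -0.67 (SE 0.14, adjusted p = 0.00319), and without Control B it was -0.48 and not called. The changes at Cis 24 h and TM 24 h were -0.41 (SE 0.14, adjusted p = 0.0334) and -0.42 (SE 0.14, adjusted p = 0.0436).

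**Figure D3:**
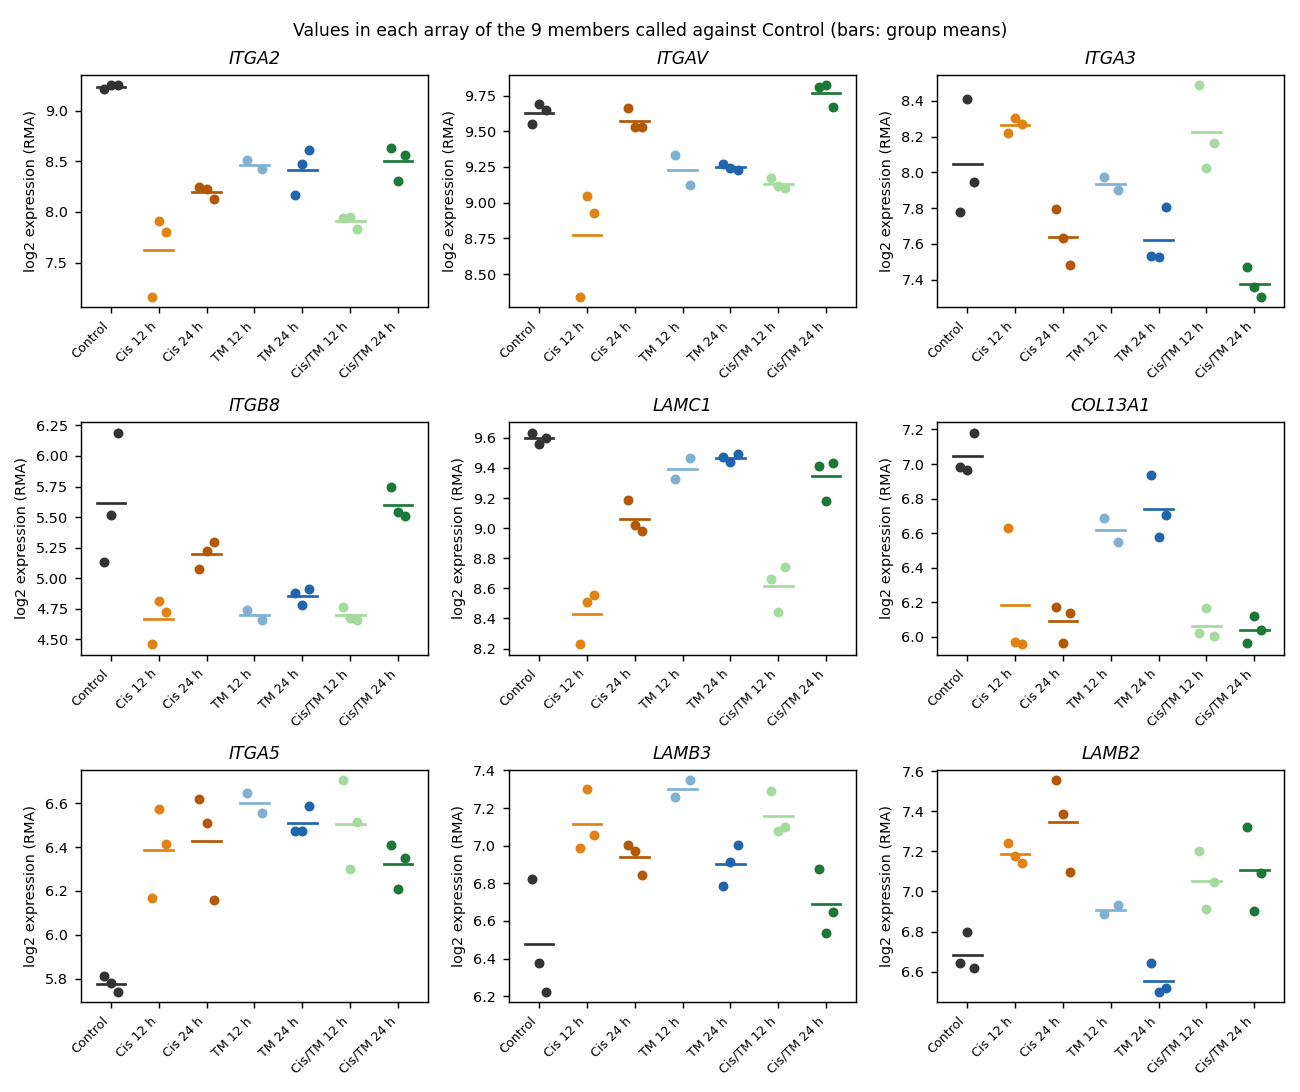
log2 expression in each of the 20 arrays (points) and group means (bars) for the 9 members called against Control, grouped on the horizontal axis by treatment and time. ITGA2 lies below and ITGA5 above all Control arrays in every treated group. The group means of ITGAV and LAMC1 are lowest in the 12 h groups that held cisplatin. The TM arrays of both genes also lie below Control.

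Of the 8 integrin beta subunits, ITGB8 was the only gene called. ITGB8, which pairs with alpha V and takes part in the activation of latent TGF-beta, had the widest spread in Control of the 9 called members, at 5.13, 5.52 and 6.19. At 12 h it was 4.46, 4.81 and 4.72 with Cis, 4.74 and 4.66 with TM and 4.76, 4.67 and 4.65 with Cis/TM. At 24 h it was 5.07, 5.23 and 5.29 with Cis, 4.87, 4.78 and 4.91 with TM and 5.75, 5.54 and 5.51 with Cis/TM. The 12 h arrays and those of TM 24 h all lay below Control, and the arrays of Cis 24 h and Cis/TM 24 h overlapped it. The log2 fold changes were -0.95 (SE 0.17, adjusted p = 0.000158) at Cis 12 h, -0.92 (SE 0.20, adjusted p = 0.002) at TM 12 h and -0.91 (SE 0.17, adjusted p = 0.000254) at Cis/TM 12 h. TM 24 h gave -0.76 (SE 0.17, adjusted p = 0.00444), which was -0.47 and not called without Control C, the highest of the 3. When the fit held only the groups compared, the adjusted p was 0.0852 at TM 12 h and 0.0952 at TM 24 h, so the TM calls rested on the spread shared over all groups. At Cis 24 h the change was -0.41 (SE 0.17, adjusted p = 0.0704), and -0.66 and called without Control A. ITGB8 lay between the lower quartile and the median of gene means.

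ITGB1, the beta 1 subunit shared by the alpha 2, alpha 3 and alpha 5 receptors, moved little. Control stood at 8.83, 8.73 and 8.94, and the treated arrays ran from 8.57 to 8.88. Its log2 fold change lay between -0.17 (95% interval -0.35 to 0.01) at TM 24 h and -0.04 (-0.24 to 0.16) at TM 12 h, so that changes of 1.5-fold lay outside these intervals. Set beside it, ITGA2 changed by -1.61 and ITGA5 by 0.61 at Cis 12 h. Beside ITGAV, at -0.86 at Cis 12 h, its other partners ITGB3, ITGB5 and ITGB6 changed by 0.24, 0.28 and -0.40. At Cis 24 h ITGB3 changed by 0.46 (SE 0.12, adjusted p = 0.00534) and ITGB6 by -0.49 (SE 0.12, adjusted p = 0.0026), both under 1.5-fold.

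The 10 laminin chains were called for 3 genes, LAMC1 lower and LAMB3 and LAMB2 higher, and 0 of the 4 alpha chains were called. LAMC1 codes for the gamma 1 chain, which is part of most laminin trimers. It stood at 9.63, 9.56 and 9.60 in Control. With Cis it was 8.23, 8.51 and 8.56 at 12 h and 9.19, 9.02 and 8.98 at 24 h, and with Cis/TM it was 8.66, 8.44 and 8.74 at 12 h and 9.41, 9.18 and 9.44 at 24 h. TM arrays gave 9.32 and 9.47 at 12 h and 9.47, 9.44 and 9.49 at 24 h. All treated arrays lay below the lowest Control array, with the 12 h arrays that held cisplatin far below and the TM arrays just below. The log2 fold change was -1.17 (SE 0.11, adjusted p = 4.12e-08) at Cis 12 h and -0.98 (SE 0.11, adjusted p = 4.63e-07) at Cis/TM 12 h, which are levels 2.25-fold and 1.98-fold lower. Without Cis 12 h A the first was -1.07. At Cis 24 h the change was -0.54 (SE 0.11, adjusted p = 0.000736), short of 1.5-fold, and it was called at -0.60 without Cis 24 h A. It was -0.26 (SE 0.11, adjusted p = 0.106) at Cis/TM 24 h, -0.20 (SE 0.12, adjusted p = 0.231) at TM 12 h and -0.13 (SE 0.11, adjusted p = 0.424) at TM 24 h.

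LAMB3 codes for the beta 3 chain of the laminin that anchors epithelial cells. Control arrays stood at 6.83, 6.38 and 6.22, with Control A above the others. With Cis the values were 6.99, 7.30 and 7.06 at 12 h and 7.001, 6.97 and 6.85 at 24 h, with TM 7.26 and 7.35 at 12 h and 6.79, 6.92 and 7.001 at 24 h, and with Cis/TM 7.29, 7.08 and 7.10 at 12 h and 6.88, 6.54 and 6.65 at 24 h. All 12 h arrays lay above Control, and those of TM 24 h and Cis/TM 24 h overlapped it. The changes at 12 h were 0.83 (SE 0.15, adjusted p = 0.000558) with TM, 0.64 (SE 0.14, adjusted p = 0.000623) with Cis and 0.68 (SE 0.14, adjusted p = 0.000382) with Cis/TM. LAMB3 was not called at Cis 12 h with median centring (0.49), quantile normalization (0.43), the trend removed (0.37), without Control C (0.51) or without Cis 12 h B (0.55). It was not called at Cis/TM 12 h with the same scalings (0.57, 0.41 and 0.40) or without Control C (0.56), and at TM 12 h it was 0.57 and not called with quantile normalization. At 24 h the changes were 0.46 (SE 0.14, adjusted p = 0.0114) with Cis and 0.43 (SE 0.14, adjusted p = 0.0309) with TM, and without Control A they were 0.64 and 0.60 and called.

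LAMB2, the beta 2 chain, was called at Cis 24 h alone. Its values were 6.64, 6.80 and 6.62 in Control and 7.55, 7.38 and 7.10 in Cis 24 h. At 12 h of Cis they were 7.24, 7.18 and 7.14, and with Cis/TM 7.20, 6.91 and 7.05 at 12 h and 7.32, 6.90 and 7.09 at 24 h, all above Control, while TM gave 6.89 and 6.93 at 12 h and 6.64, 6.50 and 6.52 at 24 h. The log2 fold change at Cis 24 h was 0.66 (SE 0.12, adjusted p = 0.000319), or 1.58-fold higher, and it was 0.57 with median centring, 0.38 with quantile normalization, 0.39 with the trend removed and 0.55 without Cis 24 h A, all uncalled. At Cis 12 h it was 0.50 (SE 0.12, adjusted p = 0.00207). Chains that can join gamma 1 in a trimer did not move by like amounts with it at Cis 12 h. LAMC1 changed by -1.17 and the alpha chain LAMA5 by 0.30. The beta chains LAMB2 and LAMB1, which are alternatives to each other in a trimer, changed by 0.50 and -0.28.

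Of the 43 collagen genes, COL13A1 alone was called against Control. COL13A1 codes for a collagen that crosses the plasma membrane and is found at sites of cell adhesion, and it was lower wherever cisplatin was given. Control arrays stood at 6.98, 6.97 and 7.18, and those with Cis at 6.63, 5.97 and 5.96 for 12 h and 6.17, 5.97 and 6.14 for 24 h. With both drugs it was 6.02, 6.17 and 6.002 at 12 h and 5.96, 6.12 and 6.04 at 24 h, and with TM 6.69 and 6.55 at 12 h and 6.93, 6.58 and 6.71 at 24 h. All treated arrays lay below Control, and Cis 12 h A stood among the TM arrays rather than with the other arrays that held cisplatin. The log2 fold changes were -0.86 (SE 0.15, adjusted p = 6.42e-05) at Cis 12 h, -0.95 (SE 0.15, adjusted p = 4.67e-05) at Cis 24 h, -0.98 (SE 0.15, adjusted p = 1.65e-05) at Cis/TM 12 h and -1.002 (SE 0.15, adjusted p = 9.84e-05) at Cis/TM 24 h. Without Cis 12 h A the first was -1.08. With TM alone the changes were -0.43 (SE 0.16, adjusted p = 0.0615) at 12 h and -0.31 (SE 0.15, adjusted p = 0.146) at 24 h, under 1.5-fold. These 4 calls were kept in every alternative and with each array left out.

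The other classes of collagen had 0 calls against Control. The 11 fibrillar chains, which form the banded fibres, had a median log2 fold change of 0.02 at Cis 12 h and -0.09 at Cis 24 h, beside -0.01 and -0.03 for all genes. The type I chains COL1A1 and COL1A2 changed by 0.15 (95% interval -0.13 to 0.42) and -0.07 (-0.40 to 0.27) at Cis 12 h. The lowest value of this class was that of COL24A1 at Cis 24 h, -0.56 (SE 0.17, adjusted p = 0.0151), a gene below the lower quartile of signal that was called at -0.63 without Control A, at -0.66 without Control C, at -0.61 without Cis 24 h B, and, at TM 24 h, at -0.66 without TM 24 h A. The 9 basement membrane and network chains had medians of -0.05 at Cis 12 h and 0.08 at TM 24 h. The paired type IV chains moved little: COL4A1 and COL4A2 changed by -0.18 and 0.05 at Cis 12 h, COL4A3 and COL4A4 by 0.17 and -0.14, and COL4A5 and COL4A6 by -0.31 and 0.05. The 10 FACIT chains, which sit on the surface of fibrils, had a median of -0.01 at Cis 12 h, and the 8 beaded filament and anchoring chains one of 0.08. In that class, COL6A1 and COL6A2, which form microfibrils together, changed by 0.49 (SE 0.14, adjusted p = 0.0065) and 0.30 (SE 0.15, adjusted p = 0.109) at Cis 12 h, and COL6A1 was called at 0.59 without Control C and at 0.59 without Cis 12 h C.

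COL8A1, a chain of the network collagen VIII, separated TM from the other groups. Its values were 4.23, 4.37 and 4.002 in Control, and with TM 4.71 and 4.60 at 12 h and 4.66, 4.66 and 4.997 at 24 h. With Cis they were 4.04, 3.89 and 3.92 at 12 h and 4.24, 3.94 and 4.08 at 24 h, and with Cis/TM 3.81, 4.11 and 3.94 at 12 h and 4.30, 3.94 and 4.16 at 24 h. Each TM array lay above each of the other arrays, although the gene lay below the lower quartile of signal. The log2 fold change against Control was 0.45 (SE 0.14, adjusted p = 0.0256) at TM 12 h and 0.57 (SE 0.13, adjusted p = 0.0036) at TM 24 h, short of 1.5-fold. The second was called at 0.59 without Control A, 0.66 without Control B, 0.63 without TM 24 h A and 0.63 without TM 24 h B.

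Of the comparisons with Control, the counts at Cis 24 h and TM 24 h changed by over 1.5 times when an array was left out. The number of members called at Cis 24 h was 7 in place of 4 without Control A, with COL24A1, ITGB8 and LAMB3 added. At TM 24 h it was 5 in place of 3 without Control A (COL8A1 and LAMB3 added) and 5 without TM 24 h A (COL8A1 and COL24A1 added).

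Whether TM changed the response to cisplatin was asked by setting Cis/TM against each drug alone. Against cisplatin, 0 of 77 members were called at 12 h, where 0% of all genes were, and 0 at 24 h, where 1.5% of all genes were. At an unadjusted p under 0.05, 2 members passed at each time, against 9.4% and 17.53% of all genes. The log2 differences of members lay between -0.29 and 0.36 at 12 h and between -0.26 and 0.40 at 24 h. For ITGA2 the difference was 0.28 (95% interval -0.04 to 0.60) at 12 h and 0.30 (-0.02 to 0.62) at 24 h, for LAMC1 it was 0.18 (-0.04 to 0.41) and 0.28 (0.05 to 0.51), and for ITGAV 0.36 (0.08 to 0.64) and 0.19 (-0.08 to 0.47). For COL13A1 it was -0.12 (-0.43 to 0.18) and -0.05 (-0.35 to 0.26), and for ITGB8 0.03 (-0.33 to 0.40) and 0.40 (0.03 to 0.76). Of these, the intervals of ITGA2 at both times, ITGAV at 12 h and ITGB8 at 24 h reach past 1.5-fold, so a difference of that size remains possible for them.

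Against TM alone, Cis/TM had 2 members lower at 12 h, where 13.6% of all genes were called, and 3 members called at 24 h, where 6.28% of all genes were. At 12 h LAMC1 was lower, at -0.78 (SE 0.12, adjusted p = 7.39e-05), with arrays of the groups apart. COL8A1 was lower at both times, with -0.70 (SE 0.14, adjusted p = 0.00101) at 12 h and -0.64 (SE 0.13, adjusted p = 0.00185) at 24 h, and the second was -0.53 without TM 24 h C and -0.54 without Cis/TM 24 h B, both uncalled. At 24 h COL13A1 differed by -0.70 (SE 0.15, adjusted p = 0.00256), and ITGB8 by 0.74 (SE 0.17, adjusted p = 0.00643). The difference for ITGA2 was -0.56 (SE 0.17, adjusted p = 0.0215) at 12 h, short of 1.5-fold, and 0.08 (95% interval -0.24 to 0.40) at 24 h.

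The time course was read by setting 24 h against 12 h within a treatment, a comparison that uses no Control array. With Cis, 3 members were called, where 10.6% of all genes were. ITGAV was higher at 24 h than at 12 h by 0.80 (SE 0.13, adjusted p = 0.000141) and LAMC1 by 0.63 (SE 0.11, adjusted p = 0.000227), while ITGA3 was lower by -0.63 (SE 0.14, adjusted p = 0.00316). Without Cis 12 h A the first was 0.59 and still called and the second 0.53 and not called. LAMC1 was also uncalled without Cis 24 h A (0.57), with quantile normalization (0.53) and with the trend removed (0.51), and ITGA3 without Cis 24 h C (-0.55) and with median centring (-0.56). The count was 5 without Cis 12 h B, with ITGA2 and ITGB8 added, and 6 without Cis 12 h C, with ITGA2, ITGA10 and ITGB4 added. ITGA2 differed by 0.57 (SE 0.15, adjusted p = 0.00918) between the times.

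With Cis/TM, 5 members were called between the times, where 13.7% of all genes were. ITGB8 was higher at 24 h by 0.90 (SE 0.17, adjusted p = 0.00055), LAMC1 by 0.73 (SE 0.11, adjusted p = 4.08e-05), ITGAV by 0.64 (SE 0.13, adjusted p = 0.000985) and ITGA2 by 0.59 (SE 0.15, adjusted p = 0.00581), whereas ITGA3 was lower by -0.85 (SE 0.14, adjusted p = 0.00016). The ITGA2 difference was 0.55 without Cis/TM 12 h C, 0.52 without Cis/TM 24 h A and 0.56 without Cis/TM 24 h C, in each case uncalled. With TM alone, 0 members were called (limma), where 0.00543% of all genes were. At an unadjusted limma p under 0.05, 6 of the 77 members passed, against 5.8% of all genes. The TM differences of members lay between -0.40 and 0.34. With Cis/TM, the log2 fold change against Control went from -0.91 at 12 h to -0.02 at 24 h for ITGB8, from -0.98 to -0.26 for LAMC1, from -0.50 to 0.14 for ITGAV, from -1.33 to -0.74 for ITGA2 and from 0.18 to -0.67 for ITGA3.

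The interaction of the drugs was the change with Cis/TM less the changes with Cis and with TM, so that a value above 0 means a level above the sum of the single changes. At 12 h, 5 members were called, where 10.3% of all genes were, and at 24 h 4 were, where 16.5% of all genes were. ITGA2 had 1.05 (SE 0.23, adjusted p = 0.0053) at 12 h and 1.12 (SE 0.22, adjusted p = 0.00101) at 24 h, since the single changes of -1.61 and -0.77 at 12 h stood beside -1.33 with both. ITGB8 had 0.95 (SE 0.26, adjusted p = 0.0224) and 1.16 (SE 0.25, adjusted p = 0.00227), and ITGAV had 0.76 (SE 0.20, adjusted p = 0.0157) at 12 h. The raised genes had values below 0, ITGA5 with -0.70 (SE 0.19, adjusted p = 0.021) and -0.84 (SE 0.18, adjusted p = 0.00245), and LAMB3 with -0.79 (SE 0.20, adjusted p = 0.0155) and -0.68 (SE 0.19, adjusted p = 0.0154). Each of these 5 genes had single changes of the same sign at 12 h, and the combined change was smaller in size than their sum. The 3 Control arrays enter all terms, so a departure of these arrays and a less than additive response cannot be told apart here.

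The 12 h interaction rested on few arrays. Its count was 3 without Cis 12 h A, 2 without TM 12 h A, 1 without TM 12 h B, and 2 when only the groups compared were fitted. Leaving out a TM 12 h array leaves 1 array in that group, which is then assumed to vary like the other groups. ITGAV had 0.55 without Cis 12 h A, and an adjusted p of 0.103 without TM 12 h B. The adjusted p of ITGB8 was 0.0523 without Cis 12 h A, 0.0712 without TM 12 h A and 0.0937 without TM 12 h B. That of ITGA5 was 0.0542 without Cis 12 h B, 0.101 without TM 12 h A, 0.0585 without TM 12 h B and 0.0624 without Cis/TM 12 h B. That of LAMB3 was 0.0509 without TM 12 h A and 0.0777 without TM 12 h B. At 24 h the LAMB3 value was -0.55 without Control C and uncalled.

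Lists of genes that act with the members gave the surroundings of these changes. The lists were drawn up with earlier results of these data known. Of 32 adaptors and kinases of integrin adhesions, 4 were higher and 7 lower at Cis 12 h (12.5% and 21.9%, against 14.8% and 10.8% of all genes), and 3 and 5 at Cis 24 h (9.38% and 15.6%, against 11.5% and 4.9%). With TM they were 2 and 0 at each time (6.25% and 0%, against 8.99% and 3.11% at 12 h and 5.16% and 2.55% at 24 h). With Cis/TM they were 4 and 4 at 12 h (12.5% each, against 15.2% and 8.55%) and 0 and 5 at 24 h (0% and 15.6%, against 4.54% and 2.48%). The share called lower was above that of all genes in the 4 groups that held cisplatin, and the share called higher was above it at TM 24 h alone. PTK2, the focal adhesion kinase, changed by -1.66 (SE 0.11, adjusted p = 4.92e-10) at Cis 12 h and -1.46 (SE 0.11, adjusted p = 3.24e-09) at Cis/TM 12 h, against 0.03 at TM 12 h. DOCK1, an exchange factor for RAC1, changed by -1.85 (SE 0.15, adjusted p = 5.47e-09), and NEDD9, a scaffold of focal adhesions, by 1.36 (SE 0.11, adjusted p = 6.94e-09) at Cis 12 h. The falls of PTK2 and DOCK1 were thus of the size of that of ITGA2 at Cis 12 h, and with TM their changes were near 0 at TM 12 h (-0.03 for DOCK1) where ITGA2 was lower.

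Among 29 other adhesive glycoproteins and ligands, 3 were higher and 4 lower at Cis 12 h (10.3% and 13.8%, against 14.8% and 10.8% of all genes). At Cis/TM 12 h they were 4 and 4 (13.8% each, against 15.2% and 8.55%), and at Cis 24 h 1 and 3 (3.45% and 10.3%, against 11.5% and 4.9%). With TM they were 1 and 1 at 12 h (3.45% each, against 8.99% and 3.11%) and 1 and 2 at 24 h (3.45% and 6.9%, against 5.16% and 2.55%). At Cis/TM 24 h they were 0 and 2 (0% and 6.9%, against 4.54% and 2.48%). FBN1, which builds microfibrils, changed by -1.73 (SE 0.13, adjusted p = 3.29e-09) at Cis 12 h and -0.43 (SE 0.13, adjusted p = 0.0139) at Cis 24 h. NTN4, a netrin that binds laminin gamma 1, changed by -0.89 (SE 0.09, adjusted p = 6.98e-08) and SPARC, a collagen-binding glycoprotein, by 1.004 (SE 0.13, adjusted p = 1.74e-06) at Cis 12 h. Of 13 other matrix receptors, 2 were higher and 0 lower at Cis 12 h (15.4% and 0%, near the 14.8% and below the 10.8% of all genes), and CD151, a tetraspanin that associates with laminin-binding integrins, changed by 1.60 (SE 0.17, adjusted p = 2.98e-07), while GP6, the collagen receptor of platelets, changed by 0.64 (SE 0.15, adjusted p = 0.00134). In the other groups 0 receptors were lower, against 2.48% to 8.55% of all genes. At Cis 24 h, TM 12 h and Cis/TM 12 h 1 was higher (7.69% each, against 11.5%, 8.99% and 15.2%). At TM 24 h and Cis/TM 24 h 0 were higher (against 5.16% and 4.54%). Of 22 matrix metalloproteinases and inhibitors, 5 were higher and 1 lower at Cis 12 h and at Cis/TM 12 h (22.7% and 4.55%, against 14.8% and 10.8% of all genes in the first and 15.2% and 8.55% in the second). At Cis 24 h and Cis/TM 24 h they were 2 and 1 (9.09% and 4.55%, against 11.5% and 4.9%, and 4.54% and 2.48%). With TM they were 1 and 1 at 12 h (4.55% each, against 8.99% and 3.11%). At TM 24 h they were 0 and 1 (0% and 4.55%, against 5.16% and 2.55%). MMP16, a membrane-type metalloproteinase, changed by -1.45 (SE 0.12, adjusted p = 9.18e-09), and the inhibitors TIMP1 and TIMP2 by 1.19 (SE 0.14, adjusted p = 6.38e-07) and 0.86 (SE 0.10, adjusted p = 6.77e-07) at Cis 12 h.

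More calls fell on genes that process collagen than on the chains themselves, a difference for which no test was run. Of the 25 genes for folding, modification, transport and cross-linking, 8 were higher and 3 lower at Cis 12 h, 8 and 2 at Cis 24 h, 8 and 0 at TM 12 h, 5 and 1 at TM 24 h, 7 and 3 at Cis/TM 12 h, and 2 and 1 at Cis/TM 24 h, beside 0 higher and at most 1 lower of 43 chains. In the same order the share called higher was 32%, 32%, 32%, 20%, 28% and 8%, against 14.8%, 11.5%, 8.99%, 5.16%, 15.2% and 4.54% of all genes. The share called lower was 12%, 8%, 0%, 4%, 12% and 4%, against 10.8%, 4.9%, 3.11%, 2.55%, 8.55% and 2.48%, which is near it by counts of 0 to 3 genes. Their medians lay near 0, between -0.03 and 0.08. PPIB, a prolyl isomerase that folds procollagen, changed by 1.43 (SE 0.12, adjusted p = 8.04e-09) at Cis 12 h and 0.96 (SE 0.13, adjusted p = 3.47e-05) at TM 12 h. P4HB, a subunit of prolyl 4-hydroxylase, changed by 0.89 (SE 0.11, adjusted p = 2.59e-06) at Cis 12 h, and PLOD3, a lysyl hydroxylase, by 0.995 (SE 0.15, adjusted p = 1.32e-05) at Cis 12 h and 1.30 (SE 0.16, adjusted p = 1.91e-05) at TM 12 h. SEC24D, a part of the coat that carries procollagen out of the endoplasmic reticulum, changed by -1.15 (SE 0.12, adjusted p = 1.21e-07) at Cis 12 h. The median of gene means was 7.41 over the processing list and 5.18 over the chains, and log2 fold changes rose with the level of a gene over all genes, as a Spearman correlation across genes of 0.23 to 0.50 in the 6 comparisons. The part of that trend in the difference between the lists was not tested.

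**Figure D4:**
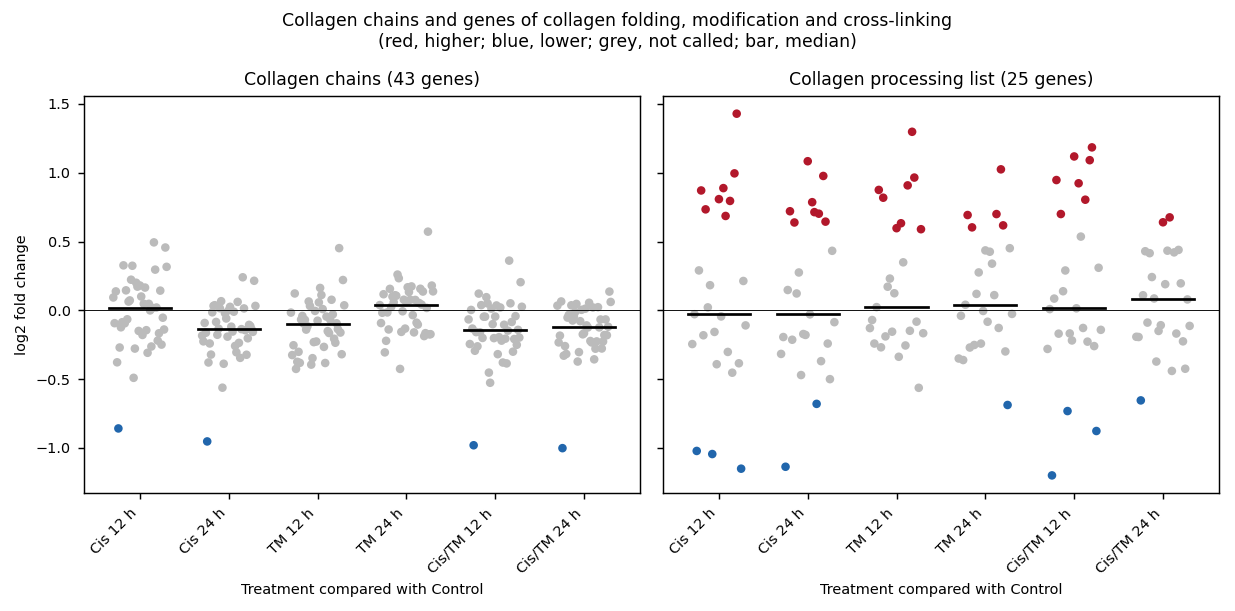
log2 fold change against Control of the 43 collagen chains (left) and of the 25 genes of the collagen processing list (right) in the 6 treatment groups. Points are genes, red called higher, blue called lower and grey not called, and bars are medians. COL13A1 is the blue point on the left, and between 2 and 8 processing genes are red in each group.

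The members differ in the length of DNA they span, and the members called higher were among the shorter ones. Spans in RefSeq (GRCh38.p14) ran from 11.9 kb to 633.4 kb with a median of 90.8 kb, against 24.5 kb for all genes with a span. The genes called lower spanned 105.4 kb (ITGA2), 122.2 kb (LAMC1), 157.2 kb (COL13A1), 90.8 kb (ITGAV), 86.0 kb (ITGB8) and 34.4 kb (ITGA3). Those called higher spanned 24.0 kb (ITGA5), 37.6 kb (LAMB3) and 11.9 kb (LAMB2). Of the 26 shortest members (11.9 to 50.9 kb), 2 were higher and 0 lower at Cis 12 h. Of the next 25 (51.8 to 147.1 kb), 0 were higher and 4 lower, and of the 26 longest (150.2 to 633.4 kb), 0 were higher and 1 lower. The medians of these sets at Cis 12 h were 0.14, -0.12 and -0.12. Over all genes of any span, 14.8% were called higher and 10.8% lower at Cis 12 h, and shares within these span ranges are not given. The shortest set had 2 higher and 0 lower at Cis 24 h, TM 12 h and Cis/TM 12 h. It had 1 and 0 at TM 24 h, and 0 and 1 at Cis/TM 24 h.

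As a description across genes, which are not independent replicates and share the arrays, the Spearman correlation of span with log2 fold change over the 77 members was -0.42 at Cis 12 h, -0.37 at Cis 24 h, -0.44 at Cis/TM 12 h and -0.25 at Cis/TM 24 h, and -0.19 and -0.13 with TM at 12 h and 24 h. Over 18388 genes it was -0.39 at Cis 12 h, -0.19 at Cis 24 h, -0.31 at Cis/TM 12 h and -0.10 at Cis/TM 24 h, and -0.01 and -0.07 with TM. Span and signal went together among members, with a rho of -0.40 between span and mean level. With the trend over level removed, the correlations over members were -0.21 at Cis 12 h, -0.14 at Cis 24 h, -0.15 at Cis/TM 12 h and -0.05 at Cis/TM 24 h, and with TM they turned to 0.05 at 12 h and 0.06 at 24 h. ITGA2 and ITGB8, of middle span, were lower with TM as well.

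**Figure D5:**
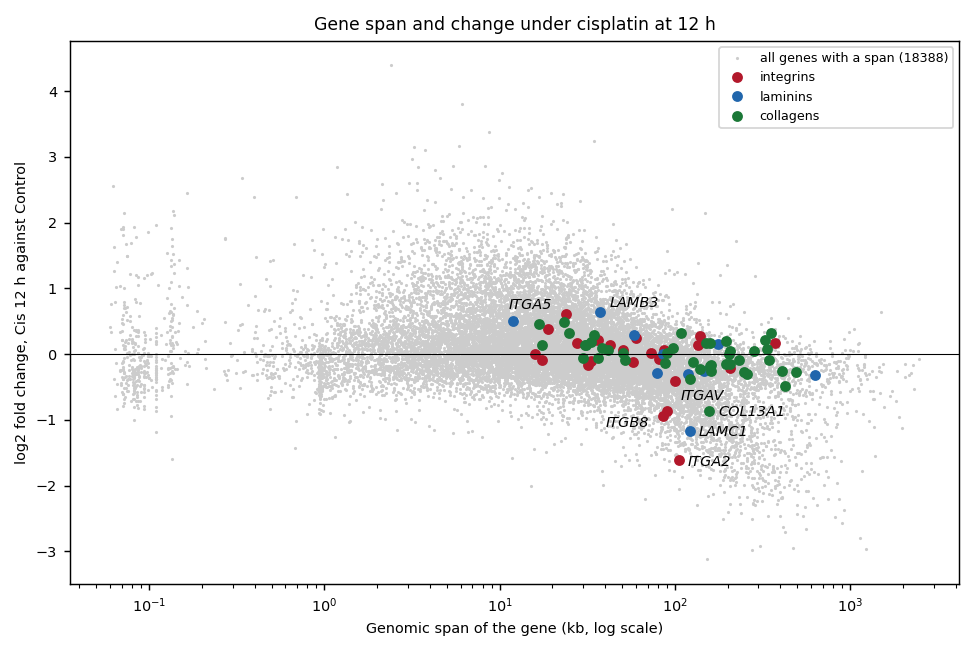
Genomic span (kb, log scale) against log2 fold change at Cis 12 h for integrins (red), laminins (blue), collagens (green) and all genes with a span (grey, 18388). The 5 members called lower span 86.0 kb to 157.2 kb, and most members lie within 0.5 of 0 on the log2 scale.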

How the data were processed

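Affymetrix Human Gene 1.0 ST arrays measured total RNA of MDA-MB-231 cells, and the authors deposited log2 expression values that RMA had background-corrected, normalized between arrays and summarized per transcript cluster. These values were used as deposited. They carry no measure of background per cluster, so a weakly expressed gene cannot be told from an absent one, and RMA compresses small differences at low signal. RNA isolation is given as RNeasy in the methods and as Trizol in the labels. Of 33297 clusters, 19460 had a single gene symbol and 1754 had several and were left out, and each of 18417 genes was represented by its cluster with the highest mean. COL11A2 was the 1 member with several clusters, and 1 integrin subunit is not reported here.

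Groups came from the sample labels. A single limma model (version 3.58.1, R 4.3.3) took all 20 arrays with a mean for each of the 7 groups, which left 13 residual degrees of freedom, with eBayes moderation and Benjamini-Hochberg adjustment over all genes of a comparison. The median SE of a log2 fold change between groups of 3 was 0.135, and the number of arrays limits the precision. Calls needed a fold change over 1.5, as the methods name, besides an adjusted p under 0.05. The procedure was tested on simulated data. The alternatives were median centring, quantile normalization, removal of the loess trend of change over level (span 0.4), leaving out the 25% of genes with the lowest mean, the mean of a gene's clusters, a fit of only the groups compared, a replicate block, an unadjusted p under 0.05, inclusion of 3 genes that share a prefix, and leaving out each array in turn. The replicate letters did not pair the arrays: residuals of same-lettered arrays had a median correlation of 0.008 over 57 pairs (-0.423 to 0.613).

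The members, the lists and the tests were chosen with earlier results of these data known. Values in every array are given for members called against Control and for COL8A1 and ITGB1, up to 5 called members by size in the other comparisons, partner subunits side by side, and up to 3 called genes per list by p. COL24A1 and COL6A1, and others that passed only with an array left out, were added after their values were seen. Promoters and gene spans came from RefSeq (GRCh38.p14).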

Additional observations from a re-analysis of the deposited data

Results flagged for a closer look

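Differences between times and departures from additive drug effects, each tested by a contrast of the same limma fit, are gathered here with their log2 values. Between 24 h and 12 h of cisplatin, ITGAV differed by 0.804 and LAMC1 by 0.632, both higher at 24 h, and ITGA3 by -0.625. Between 24 h and 12 h of Cis/TM, ITGB8 differed by 0.899, LAMC1 by 0.728, ITGAV by 0.636 and ITGA2 by 0.591, and ITGA3 by -0.845. The interaction of the drugs at 12 h was 1.052 for ITGA2, 0.948 for ITGB8, 0.762 for ITGAV, -0.702 for ITGA5 and -0.786 for LAMB3. At 24 h it was 1.121 for ITGA2, 1.157 for ITGB8, -0.838 for ITGA5 and -0.677 for LAMB3. The interaction values use the 3 Control arrays that also enter the single changes, and ITGB8 had the widest Control spread of the 9 genes, from 5.13 to 6.19.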

How the results depend on the processing

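The number of members called was recomputed for 15 comparisons under 9 alternatives, and 131 of the 135 counts stayed within 1.5 times the reported one. The exceptions were Cis/TM 12 h against TM 12 h, with 4 members called under median centring and 1 with the lowest 25% of genes left out in place of 2, and the drug interaction at 12 h, with 3 under removal of the trend with level and 2 with only the groups compared in place of 5. The cause was not tested. With a replicate block, the counts were 7, 4, 4, 3, 6 and 3 against Control (Cis, TM and Cis/TM in turn, with 12 h before 24 h in each), the same as without it, and 5 and 4 for the interactions.

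With each array left out in turn, the counts ran from 3 to 7 at Cis 24 h (7 without Control A), from 2 to 5 at TM 24 h (5 without Control A or TM 24 h A), from 2 to 6 for Cis 24 h against Cis 12 h (5 without Cis 12 h B, 6 without Cis 12 h C), and from 1 to 5 for the interaction at 12 h (1 without TM 12 h B). Of 27 calls of a member against Control, 17 were kept in all alternatives and with each array left out, and no called change reversed its sign in any of them. Values near background and 2 or 3 arrays a group limit what can be told for the 25 members below the lower quartile of signal.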

Other observations

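The 3 genes that share a prefix with the members code for proteins that bind the cytoplasmic part of beta integrins or, for ITGB3BP, a centromere protein. ITGB3BP had a log2 fold change of -0.77 (SE 0.15, limma adjusted p = 0.000312) at Cis 12 h and -0.42 (SE 0.15, adjusted p = 0.0303) at Cis/TM 12 h, and -0.09 at Cis 24 h. ITGB1BP1 changed by 0.26 at Cis 12 h and 0.28 at Cis/TM 12 h, and ITGB1BP2 by 0.50 at Cis 12 h, each under 1.5-fold.

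The 1 cluster that the annotation gives to both PELO and ITGA1 was not used above. The Control mean was 7.068 ± 0.105 (SD, n = 3). With Cis it was 6.631 ± 0.05 (SD, n = 3) at 12 h and 7.021 ± 0.11 (SD, n = 3) at 24 h. With TM it was 6.734 ± 0.018 (SD, n = 2) at 12 h and 6.598 ± 0.15 (SD, n = 3) at 24 h. With Cis/TM it was 6.743 ± 0.093 (SD, n = 3) at 12 h and 6.832 ± 0.119 (SD, n = 3) at 24 h. The 2 genes cannot be told apart in this cluster. COL11A2 had 3 clusters, of which 2 held identical values. Its cluster of highest mean was 5.795 in Control and 5.932 in Cis 12 h, while the identical pair went from 4.198 to 5.08, and with the mean of the clusters COL11A2 was called at 0.63 at Cis 12 h.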
